A study of Mus musculus with 24 samples.

Results

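Liver of mice given 0.1% phloridzin in the diet was compared with liver of mice on the control diet, across all genes measured on Affymetrix expression arrays. The comparison rested on 9 of the 24 arrays of the study, 3 at 0.1% phloridzin (replicates 2, 4 and 5) and 6 on the control diet (replicates 1 to 6). The arrays were chosen by their likeness to each other and not by any difference between diets. Control replicates 1 and 3, and 2 and 4, were near-identical pairs and were averaged, so that 3 RNA samples at 0.1% stood against 4 control RNA samples. Replicates 1, 3 and 6 at 0.1% were near-identical to replicate 1 at 1.0% phloridzin, so the diet of that RNA is not known, and it was left out of the main comparisons. It was added to the 0.1% group only as an alternative setting. It is called the 2-label RNA here, and its level is given beside some genes as a description.

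The 0.1% group were male BALB/c mice fed a purified AIN-93G-based diet that held 0.1% phloridzin, and the control group were male BALB/c mice fed that diet with no phloridzin added. Mice of both groups were 6 weeks old, were housed 3 to a cage and ate their diet for 14 days, with 6 mice per diet by the labels. Further mice received 0.5 or 1.0% phloridzin, and their arrays reduced to 2 RNA samples at each of these doses. Whole liver was used, so each value mixes hepatocytes with the other cells of the organ. The labels do not say that each remaining sample is a separate mouse, so p-values measure only the spread between these samples.

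Phloridzin is a glucoside of apple that blocks the sodium-glucose cotransporters SGLT1 (Slc5a1) of the gut and SGLT2 (Slc5a2) of the kidney, which lowers glucose uptake from food and glucose recovery from urine. In liver, insulin and carbohydrate favour glycolysis and fatty acid synthesis, while fasting hormones favour glucose output and fat oxidation. MAP kinase signalling, which insulin, growth factors and stress all engage, is ended by dual-specificity phosphatases such as DUSP1.

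The precision was limited by the number of RNA samples. Over 1463 well measured genes, the SD of the log2 difference between arrays was 0.0436 to 0.0577 in the near-identical pairs and 0.264 to 0.450 among 0.1% replicates 2, 4 and 5. Signals were quantile-normalized over all 24 arrays, floored at 8 and put on the log2 scale, so 3.00 is the lowest value possible. Of the values tested, 5.44% were at that floor. The difference between the 3' and 5' probe sets of the actin control transcript, a sign of RNA integrity that grows as RNA breaks, was 1.51, 2.32 and 1.48 in 0.1% replicates 2, 4 and 5. It averaged 1.77 ± 0.48 at 0.1% and 1.41 ± 0.10 in control liver (SD, n = 3 and 4; two-sided exact permutation p = 0.0857, smallest possible 0.0286). That of Gapdh averaged -0.19 ± 0.12 at 0.1% and -0.34 ± 0.04 in control liver (two-sided exact permutation p = 0.0571), and 0.1% replicate 4 had the highest value of both.

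Few transcripts were called as different between 0.1% phloridzin liver and control liver. Of 13118 genes, 3 were called in limma's moderated test at an adjusted p under 0.05, which is 0.0229% of the genes tested. Dusp1 and Zfp36l1 fell (0.0152%) and Gsk3a rose (0.00762%). An unadjusted p under 0.05 was reached by 1111 genes (8.47%), 588 of them higher and 523 lower at 0.1%. All 3 samples at 0.1% lay above all 4 control samples in 542 genes (4.13%), and all 3 lay below in 491 genes (3.74%). The median log2 change over all genes was 0.00, and the middle of the distribution was narrow, with the 5th percentile at -0.45 and the 95th at 0.47. Most of the large changes were in dim transcripts. Changes of more than 1 log2 unit numbered 36 upward and 24 downward, and of these 4 and 1 had a mean log2 signal of at least 6 in both groups. Dusp1 was that 1 decrease.

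**Figure D1:**
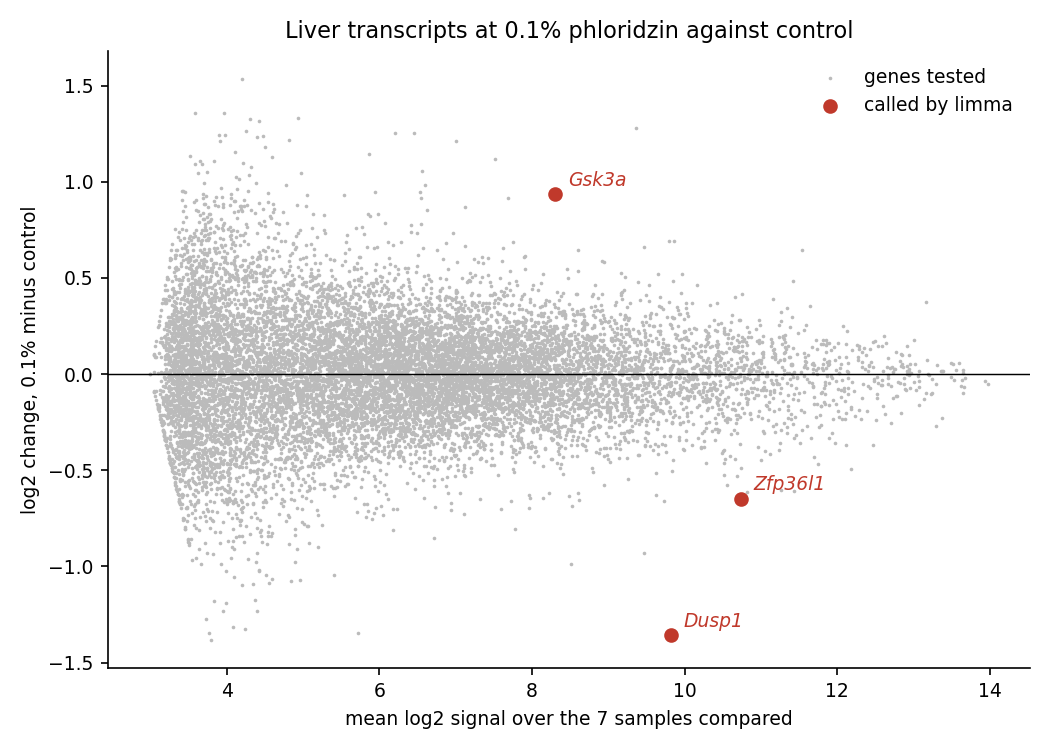
Log2 change of each of 13118 genes (0.1% phloridzin minus control, y axis) against its mean log2 signal over the 7 RNA samples (x axis), with the 3 genes called by limma in red. Dusp1 at -1.36 stands apart among bright transcripts, while the widest scatter lies at dim signals on the left.

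The promoters of these 3 genes are shown because the comparison turns on them, with known response elements close to each start marked. Each line is the 250 bases upstream of the gene's start on its own strand, from RefSeq (GRCm38.p6). Dusp1 is at chr17:26508473-26508722, Zfp36l1 at chr12:80113014-80113263 and Gsk3a at chr7:25237852-25238101, all on the minus strand, and the bases are promoter, outside the transcript. Capitals mark matches on either strand to TGACGTCA (the full cAMP response element), TGACG (its half-site), CACGTG (an E-box) or TGTTTAC (a FOXO core).
Dusp1: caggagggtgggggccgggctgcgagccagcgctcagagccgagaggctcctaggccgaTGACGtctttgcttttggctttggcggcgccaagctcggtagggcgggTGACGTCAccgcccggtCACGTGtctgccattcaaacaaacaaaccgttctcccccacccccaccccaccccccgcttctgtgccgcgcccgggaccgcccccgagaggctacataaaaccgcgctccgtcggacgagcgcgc
Zfp36l1: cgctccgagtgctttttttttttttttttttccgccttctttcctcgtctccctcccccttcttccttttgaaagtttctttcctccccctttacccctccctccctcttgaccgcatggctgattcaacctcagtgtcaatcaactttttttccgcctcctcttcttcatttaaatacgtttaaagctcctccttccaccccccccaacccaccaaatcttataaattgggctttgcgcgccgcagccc
Gsk3a: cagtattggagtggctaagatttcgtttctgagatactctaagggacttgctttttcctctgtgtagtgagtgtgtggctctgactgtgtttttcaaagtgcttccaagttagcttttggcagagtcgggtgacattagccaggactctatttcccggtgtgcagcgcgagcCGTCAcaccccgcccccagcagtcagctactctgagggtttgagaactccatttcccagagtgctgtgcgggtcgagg
The Dusp1 promoter held 1 full element, starting 143 bases before the gene's start, which contains both half-sites at 143 and 140. One more half-site lay at 191 and an E-box at 126. The Gsk3a promoter held 1 half-site at 78, and the Zfp36l1 promoter held none of the 4 motifs. Among 32851 promoters of the same length, 1.55% held the full element, 17.8% a half-site, 6.02% the E-box and 3.17% the FOXO core. These matches are a description of the letters and do not show that a factor bound there.

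Dusp1 encodes a nuclear phosphatase that switches off p38, JNK and ERK and is induced quickly by stress, growth factors and glucocorticoids. Its log2 signal was 9.17, 9.05 and 8.90 in 0.1% replicates 2, 4 and 5, against 10.27, 10.78, 10.27 and 10.27 in control replicates 1 and 3, 2 and 4, 5, and 6. The groups were separated by a gap wider than the spread inside either one. Dusp1 fell by 1.36 ± 0.16 on the log2 scale (SE), or 2.56-fold, with a limma adjusted p = 0.0120. Without 0.1% replicate 2 the limma adjusted p was 0.0704, without 0.1% replicate 5 it was 0.0648, and leaving out any other of the 11 RNA samples kept the call. Only 1 probe set on the array was annotated to Dusp1 alone, so the change has no second readout. The log2 signal averaged 10.40 in control liver, 9.04 at 0.1%, 9.54 at 0.5% and 10.32 at 1.0%, so the samples at the highest dose lay among or beside the controls. At 0.5% the 2 samples were 9.22 and 9.86, and the 2-label RNA was at 8.81, the lowest of all. The difference of 0.1% from 1.0% was -1.28 ± 0.19 (limma adjusted p = 0.0544) and that from 0.5% was -0.50 ± 0.19 (limma adjusted p = 0.406).

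No other MAP kinase phosphatase or feedback inhibitor was called. Of 15 measured members 8 were higher and 7 lower at 0.1%, with a median log2 change of 0.12, against 0.00 over all genes. Dusp1 was the 1 member below all controls, beside 3.74% of all genes, and no member lay above them, beside 4.13%. Dusp6, the ERK phosphatase, differed by 0.35 ± 0.23 and the Ras pathway inhibitor Spry4 by 0.23 ± 0.18, and neither was called. The median of this list was below 0 when arrays were centred on their median, left unscaled or floored at 32, and without control replicates 1 and 3.

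Zfp36l1 encodes a zinc finger protein that binds AU-rich elements in the tails of mRNAs and speeds their decay. Its log2 signal was 10.43, 10.41 and 10.28 in 0.1% replicates 2, 4 and 5, against 10.88, 11.10, 11.12 and 10.98 in the 4 control samples. The highest sample at 0.1% was clear of the lowest control. Zfp36l1 fell by 0.65 ± 0.09 on the log2 scale (SE; limma adjusted p = 0.0381), and its second probe set, of lower signal, stood at -0.75. The call was lost in all 11 fits that each dropped 1 RNA sample (limma adjusted p from 0.0580 to 0.176), while the change stayed between -0.69 and -0.60. The samples at 0.5% were 11.002 and 10.84, those at 1.0% were 10.81 and 10.96, and the 2-label RNA was at 10.16. The levels at both higher doses thus lay within or close to the control range. The differences of 0.1% from 0.5% and from 1.0% were -0.55 ± 0.11 and -0.52 ± 0.11 (limma adjusted p = 0.186 and 0.173).

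Gsk3a encodes glycogen synthase kinase 3 alpha, which inhibits glycogen synthase until insulin signalling through AKT turns it off. Its log2 signal was 8.64, 8.97 and 8.91 in 0.1% replicates 2, 4 and 5, against 7.91, 7.80, 8.17 and 7.73 in the 4 control samples. No sample of one group reached the range of the other. Gsk3a rose by 0.94 ± 0.14 on the log2 scale (SE), or 1.91-fold, with a limma adjusted p = 0.0381. The call was kept in 1 of 11 fits that each dropped 1 RNA sample, the one without control replicate 5, and was lost in the other 10 (limma adjusted p up to 0.176). Like Dusp1, Gsk3a has only 1 probe set annotated to it alone. At 0.5% its samples were 8.10 and 8.18, at 1.0% they were 8.08 and 8.38, and the 2-label RNA was at 8.33. All of these lay below the lowest sample at 0.1%. With the 2-label RNA added to the 0.1% group, the difference was 0.81 and the call was lost (limma adjusted p = 0.146).

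The paralog of Gsk3a and the enzymes of glycogen turnover gave no further call. Gsk3b, the second isoform, differed by 0.13 ± 0.15 and was not called (limma adjusted p = 0.826). Of 14 measured genes of glycogen enzymes and their regulators, 7 were higher and 7 lower, with a median of 0.04, and Gsk3a was the 1 member above the control range, beside 4.13% of all genes, with none below it, beside 3.74%. Ugp2, which makes the UDP-glucose for glycogen, stood at -0.20 ± 0.16 and Phkb, a subunit of phosphorylase kinase, at -0.27 ± 0.18. The list's median was below 0 when arrays were centred on their median or left unscaled, without probe sets marked x or s, and without 0.1% replicate 2.

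**Figure D2:**
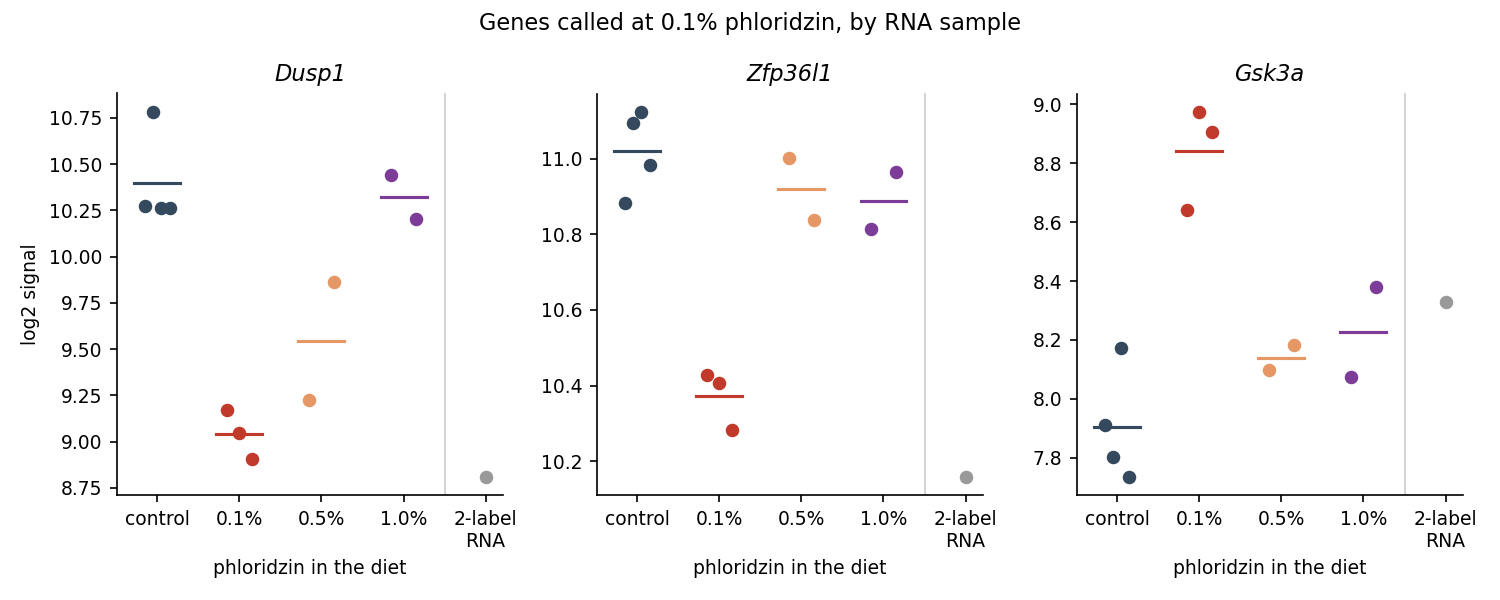
Log2 signal (y axis) of Dusp1, Zfp36l1 and Gsk3a in each RNA sample by diet (x axis), with a bar at each group mean and the 2-label RNA right of the grey line. The 3 samples at 0.1% are apart from the control samples in each panel, and the samples at 1.0% are near the control samples for Dusp1 and Zfp36l1.

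Beyond the called genes, the 12 increases and 12 decreases of lowest p were taken from the genes with a mean log2 signal of at least 6 and no overlap between groups. There were 297 such genes above control and 273 below, of 6544 at that brightness, and besides the 3 called ones none passed the threshold (limma adjusted p from 0.403 to 0.477 for the other 21). The increases after Gsk3a ranged from 0.47 to 0.98. Sbk1, a serine/threonine kinase, had a log2 signal of 8.44, 8.03 and 8.16 at 0.1%, against 7.16, 7.25, 7.42 and 7.35 in control liver, a difference of 0.92 ± 0.20 (SE). The lowest sample at 0.1% was well above the highest control. Gm2a, the lysosomal activator of ganglioside breakdown, differed by 0.58 ± 0.13. Bcl2l1, the anti-apoptotic BCL-XL, differed by 0.58 ± 0.14, but by -0.08 with the mean of its probe sets, of which the other 3 were dim. Napa, a SNARE-recycling factor of membrane fusion, stood at 0.47 ± 0.12. The ubiquitin ligase Arih2 was at 0.48 ± 0.11, while its other probe set of at least 6 stood at 0.08 and the mean of its probe sets at 0.04. Ncaph2, a condensin subunit, was at 0.66 ± 0.15 in the probe set used, but at 0.12 and -0.07 in its 2 other probe sets of at least 6 and at -0.02 with the mean of its probe sets. Zfp707, Nrep, Cmtm5 and Sash1 lay between 0.54 and 0.98. Acss2 completed the 12 and is described with fatty acid synthesis.

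The decreases included both tight-junction genes described next. Cxadr, a tight-junction adhesion protein, had a log2 signal of 8.41, 8.31 and 8.04 at 0.1%, against 8.77, 8.999, 8.74 and 8.96 in control liver, a difference of -0.62 ± 0.13 (SE). Another tight-junction gene, Cldn1, was at 8.94, 8.998 and 8.90, against 9.41, 9.77, 9.47 and 9.30, or -0.55 ± 0.14. In both genes every sample at 0.1% lay below every control. Aox3, a molybdenum hydroxylase of aldehydes and drugs, stood at -0.61 ± 0.13 and Crot, the peroxisomal carnitine octanoyltransferase, at -0.43 ± 0.11. Pdia3, a disulfide isomerase that folds glycoproteins in the endoplasmic reticulum, was at -0.58 ± 0.14. Slc25a25, a calcium-regulated mitochondrial carrier of ATP-Mg, was at -0.63 ± 0.15, Sugct, which transfers CoA to glutarate, at -0.62 ± 0.14 and the histone chaperone Nap1l1 at -0.46 ± 0.11. The histone methyltransferase Nsd3 (-0.73 ± 0.18) and the macrophage scavenger receptor Cd163 (-0.81 ± 0.17) completed the group. Nsd3 stood at -0.24 in its other probe set with a mean log2 signal of at least 6. Nap1l1 stood between -0.42 and -0.05 in its own other probe sets of that brightness. Other probe sets with a mean log2 signal of at least 6 existed for 11 of the 24 genes. Of 16 such probe sets 15 pointed the same way, and in 11 the probe set used had a change over 1.5 times as large.

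Of 14 measured genes of glucose entry and glycolysis, 3 lay above all controls, beside 4.13% of all genes, and 1 below them, beside 3.74%, and none was called. Pklr, the liver pyruvate kinase, had a log2 signal of 9.46, 9.61 and 9.33 at 0.1%, against 8.77, 9.17, 8.75 and 9.08 in control liver, a difference of 0.52 ± 0.13 (SE; limma adjusted p = 0.477). Its 3 samples at 0.1% lay above all controls. Khk, which phosphorylates fructose, differed by 0.28 ± 0.10 and Pfkl, the liver phosphofructokinase, by 0.41 ± 0.21, and both also lay above the control range. Txnip, which restrains glucose uptake and is itself induced by glucose, lay below it at -0.46 ± 0.15. Of the 14 genes 8 were higher and 6 lower, and their median was 0.03. That median was below 0 in 6 of 28 alternative settings.

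Of 22 measured genes of fatty acid synthesis, 16 were higher and 6 lower at 0.1%, with a median log2 change of 0.21, against 50.6% higher and a median of 0.00 over all genes, and none was called. All 3 samples lay above the controls in 5 members, beside 4.13% of all genes, and below them in 1, beside 3.74%. Acss2, which makes acetyl-CoA from acetate, had a log2 signal of 10.22, 10.31 and 10.23 at 0.1%, against 9.21, 9.72, 9.25 and 10.06 in control liver, a difference of 0.69 ± 0.17 (SE). The 3 samples at 0.1% were tightly grouped, while the controls spread over a far wider range. Scd1, the stearoyl-CoA desaturase, was at 13.52, 13.25 and 13.38, against 13.04, 13.08, 12.71 and 13.20, and Acacb, the mitochondrial acetyl-CoA carboxylase, at 6.98, 7.56 and 7.26, against 6.33, 6.68, 6.38 and 6.96. For both, the lowest sample at 0.1% was just above the highest control. Acly, which makes cytosolic acetyl-CoA from citrate, differed by 0.46 ± 0.16 with groups that just overlapped, and by 0.02 with the mean of its probe sets. Fasn, the synthase itself, was at 9.67, 10.21 and 10.16, against 9.23, 9.997, 9.25 and 10.09, so its groups overlapped. The lipogenic regulator Srebf1 stood at -0.12 ± 0.17. Without each sample at 0.1% in turn, 15 to 17 members were higher and the median ran from 0.14 to 0.27, but with no scaling of arrays, which put the median of all genes at -0.16, 12 were higher and the median was 0.05.

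Control liver was itself uneven in these genes. For Acss2, Acacb, Fasn, Acly and Pklr, control replicates 2 and 4 and control replicate 6 were the higher samples, and control replicates 1 and 3 and control replicate 5 the lower. The mean log2 signal of the whole list, set against its control mean, ranged from 0.11 to 0.21 at 0.1% and from -0.18 to 0.17 in control liver, so the 2 groups overlapped.

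Of 20 measured genes of cholesterol synthesis and uptake 18 were higher at 0.1%, with a median of 0.13, and none was called. Pmvk, the phosphomevalonate kinase, was at 7.31, 7.44 and 7.72 at 0.1%, against 6.71, 7.20, 6.80 and 7.14 in control liver, and was the 1 member above the control range, beside 4.13% of all genes. Sqle, the squalene epoxidase, was at 6.90, 6.56 and 7.27, against 5.81, 6.04, 5.52 and 7.32. Its highest value was a control, replicate 6. Dhcr7, which makes cholesterol from its last precursor, stood at 0.50 ± 0.20 and Insig1, the sterol sensor that holds SREBP in the endoplasmic reticulum, at 0.42 ± 0.18. The list's mean log2 signal, set against its control mean, was 0.09 and 0.10 in 0.1% replicates 2 and 4 and 0.43 in replicate 5, against -0.22 to 0.38 in control liver. Without replicate 5, 11 of 20 members were higher and the median was 0.06. With no scaling of arrays the median was -0.05, against -0.16 over all genes.

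Genes of fatty acid oxidation under PPARA were mixed, with 13 of 24 measured members higher, a median of 0.00 and no call. Without 0.1% replicate 4, 16 members were higher and the median was 0.13, while without replicate 5 they were 8 and -0.07. The median changed sign in 6 of 28 alternative settings. Below all controls lay 3 members, beside 3.74% of all genes, and above them 1, beside 4.13%. The medium-chain acyl-CoA dehydrogenase Acadm was at 10.67, 10.52 and 10.02 at 0.1%, against 11.03, 10.92, 10.71 and 10.73 in control liver, a difference of -0.44 ± 0.14 (SE; limma adjusted p = 0.488). The long-chain enzyme Acadl (-0.23 ± 0.10) and Cpt2 (-0.17) also lay below all controls. Acaa1a, the peroxisomal thiolase, lay above them at 0.31 ± 0.12. The acyl-CoA thioesterase Acot3 was at 6.11, 4.62 and 5.79, against 4.95, 4.08, 4.73 and 3.41, and 0.1% replicate 4 fell inside the control range.

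**Figure D3:**
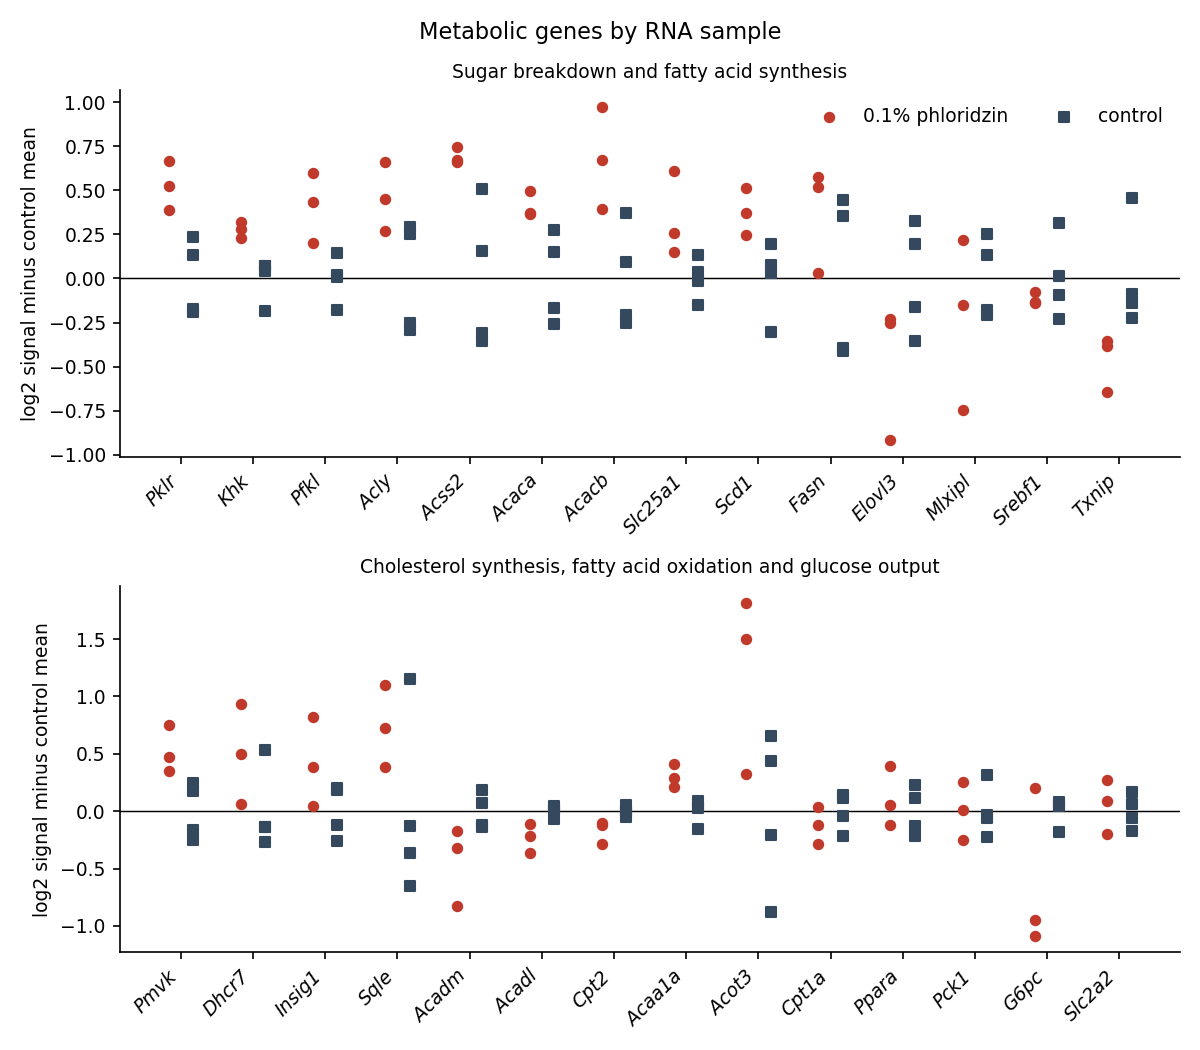
Log2 signal of metabolic genes minus the gene's control mean (y axis) in the 3 RNA samples at 0.1% phloridzin (red circles) and the 4 control RNA samples (dark squares), with 1 gene per position on the x axis. Pklr, Khk, Pfkl, Acss2, Acaca, Acacb, Slc25a1, Scd1, Pmvk and Acaa1a have every red point above every control point. Txnip, Acadm, Acadl and Cpt2 have every red point below, and the other genes shown overlap. Over all genes tested, 4.13% lay above all controls and 3.74% below.

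Genes of glucose output and of glucose transport gave no call. Pck1, the committing enzyme of gluconeogenesis, differed by 0.00 ± 0.17. G6pc, which releases free glucose, was at 9.99, 11.27 and 10.13 at 0.1%, against 11.16, 11.13, 10.89 and 11.12 in control liver. Replicates 2 and 5 were thus below the controls and replicate 4 above them, and the difference was -0.61 ± 0.28 (limma adjusted p = 0.585). The hepatic glucose transporter Slc2a2 differed by 0.05 ± 0.13. Of the targets of phloridzin, Slc5a1 was near the floor, with a mean of 3.24 at 0.1% and 3.23 in control liver, and Slc5a2 was dim, with means of 4.99 and 4.73. Of 10 measured genes of gluconeogenesis 4 were higher and 6 lower, with a median of -0.04 that was above 0 without 0.1% replicate 4.

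Insulin and fasting responses in liver are often read from Igfbp1, Trib3 and Igf1. Igfbp1, a binding protein of IGFs that insulin represses, was at 7.23, 8.24 and 8.36 at 0.1%, against 8.16, 9.52, 8.72 and 9.32 in control liver, a difference of -0.99 ± 0.38 (SE; limma adjusted p = 0.526). Only replicate 2 was below every control. Trib3, a pseudokinase that inhibits AKT, was at 7.04, 6.72 and 7.48, against 6.33, 6.05, 6.35 and 5.79, above all controls (0.95 ± 0.31), while Igf1 stood at -0.22 ± 0.09. Of 17 measured genes of insulin signalling 11 were higher, with a median of 0.03 that changed sign in 4 of 28 alternative settings.

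Among the mRNA decay factors Zfp36l1 was the only call. Its relatives Zfp36 and Zfp36l2, which bind the same kind of element, stood at -0.40 ± 0.22 and -0.65 ± 0.24. Zfp36l2 was at 8.37, 7.67 and 8.68 at 0.1%, against 8.95, 8.95, 9.01 and 8.65 in control liver, so replicate 5 overlapped the controls. Khsrp, another factor that recruits the decay machinery, lay above the controls at 0.49 ± 0.17, but stood at -0.11 when probe sets marked x or s were left out. Of 20 measured members 14 were lower, with a median of -0.12, but without 0.1% replicate 5 the count was 8 and the median 0.02.

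Genes of the response to the glucocorticoid receptor, of which Dusp1 is also a target, went both ways. The list holds the receptor gene Nr3c1 too. Of 16 measured members 11 were lower and the median was -0.14. Without 0.1% replicate 4, 5 or 2 in turn, 11, 11 and 12 were lower, with medians of -0.03, -0.12 and -0.11. Tsc22d3, which encodes the glucocorticoid-induced leucine zipper, was at 7.45, 7.35 and 7.64 at 0.1%, against 7.97, 7.75, 8.09 and 8.14 in control liver, below all controls (-0.51 ± 0.13). Fkbp5, a cochaperone that restrains the receptor, was at 6.63, 6.83 and 7.19, against 6.38, 6.13, 6.47 and 6.52, above all controls (0.51 ± 0.17). The clock gene Per1, another target, was at 4.60, 5.20 and 5.43, against 3.85, 4.23, 3.09 and 3.00. Per1 had the largest size of change of any list member, 1.54 ± 0.37, but its signal was dim, 1 control was at the floor and it was not called (limma adjusted p = 0.469). Of 23 measured immediate early genes 12 were lower, and none was called. Jun stood at -0.40 ± 0.17 and Jund at 0.64 ± 0.23, both with overlap between groups.

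Clock genes varied within each diet. The clock-controlled transcription factor Dbp was at 11.18, 9.24 and 9.88 at 0.1%, against 9.87, 9.86, 7.93 and 7.63 in control liver. Control liver alone thus spanned over 2 log2 units. Per3 stood at 0.93 ± 0.40 and Usp2 at 1.14 ± 0.53, both with overlap, and the 19 measured clock genes had a median of 0.04, with 10 higher and 9 lower. The labels used here give no hour of sampling for each mouse, and the part of time of day in these values was not tested.

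Markers of the resident macrophages and of the sinusoidal endothelium were mostly lower at 0.1%, and 1 sample carried most of this. Of 14 measured Kupffer cell markers 11 were lower, with a median of -0.16, and of 16 sinusoidal endothelial markers 13 were lower, with a median of -0.11. No marker was called, and 2 Kupffer and 3 endothelial markers lay below all controls, beside 3.74% of all genes. Cd163 was at 5.94, 5.72 and 5.48 at 0.1%, against 6.56, 6.62, 6.38 and 6.53 in control liver. Vsig4, a complement receptor of Kupffer cells, was at 8.48, 8.25 and 8.12, against 8.77, 8.80, 8.75 and 8.52. The mannose receptor Mrc1 was at 7.55, 7.30 and 6.71, against 8.05, 8.13, 7.71 and 7.67, a difference of -0.70 ± 0.18 (SE). These 3 genes were lower in every sample at 0.1%, and Stab2, a scavenger receptor of the endothelium (-0.43 ± 0.13), and Tek, the angiopoietin receptor (-0.35 ± 0.17), were too. Clec4f, specific to Kupffer cells in the mouse, was at -0.18 ± 0.11 with overlap.

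The mean log2 score of the endothelial list was -0.49 in 0.1% replicate 4, and -0.08 and -0.02 in replicates 2 and 5, against -0.12 to 0.05 in control liver. That of the Kupffer list was -0.37 in replicate 4 and -0.09 and -0.05 in the other two, against -0.04 to 0.10. Without replicate 4, 7 of 14 Kupffer markers and 9 of 16 endothelial markers were lower, with medians of -0.03 for both lists. The summed linear signal ran from 4977 to 5534 at 0.1% and from 5243 to 6062 in control liver for the Kupffer list, and from 2002 to 2660 and from 2686 to 2752 for the endothelial list. In whole liver, fewer cells of a type and less RNA per cell cannot be told apart, and the actin 3' to 5' difference was also highest in replicate 4. The part of these markers in the other results was not tested.

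Hepatocyte markers were bright in every sample apart from Ass1, a urea cycle enzyme. The probe set used for Ass1 averaged 5.36 at 0.1% and 4.79 in control liver, and how well it reads that transcript was not tested. Alb was at 13.47, 13.58 and 13.53 at 0.1%, against 13.46, 13.44, 13.52 and 13.45 in control liver, and of 12 measured hepatocyte markers 7 were higher, with a median of 0.02. The summed signal of the list was 92350 to 95623 at 0.1% and 93615 to 98841 in control liver. Genes of the pericentral zone (5 of 10 higher, median -0.01) and of the periportal zone (3 of 8 higher, median -0.04) were near the all-gene median. Stellate and fibroblast markers were divided, with 7 of 13 higher. Markers of cholangiocytes, T and NK cells, B cells, neutrophils, red cells, adipocytes, acinar pancreas and muscle had 2 to 8 measured members each, many near the floor. Car3, a bright member of those lists, is also expressed by hepatocytes. Alas2, the erythroid enzyme of haem synthesis, was at 9.59, 9.49 and 9.86 at 0.1%, against 9.52, 9.45, 9.82 and 9.68 in control liver.

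**Figure D4:**
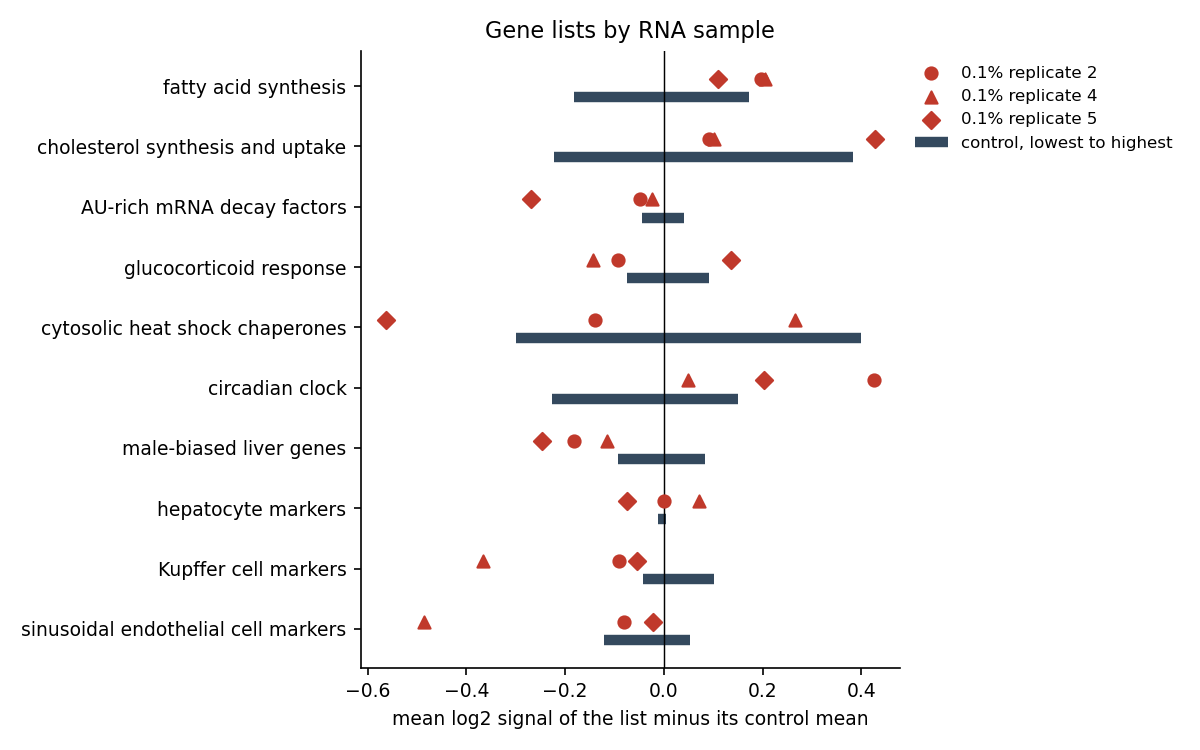
Mean log2 signal of each gene list minus its control mean (x axis), with red symbols for 0.1% replicates 2, 4 and 5 and a dark bar from the lowest to the highest of the 4 control samples. Replicate 4 is lowest for the Kupffer and sinusoidal endothelial markers and replicate 5 is lowest for the mRNA decay factors and heat shock chaperones.

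Other hepatic programmes gave no call. Of 17 measured genes of bile acid synthesis and transport 12 were lower, with a median of -0.04. Cyp7a1, which sets the pace of bile acid formation from cholesterol, was at 6.95, 7.17 and 4.94 at 0.1%, against 6.06, 5.42, 5.83 and 5.45 in control liver, so replicates 2 and 4 were above and replicate 5 below. Nr1h4, the bile acid receptor FXR, was above all controls (0.42 ± 0.12), and its target Nr0b2 (SHP) below all of them (-0.45 ± 0.18). Of 17 xenobiotic response genes 12 were lower (median -0.10), and Cyp2b10, the usual readout of the receptor CAR, was dim at 3.51, 4.26 and 3.75, against 3.75, 4.40, 6.07 and 5.22. Of 20 genes of the NRF2 antioxidant response, Nfe2l2 and Keap1 among them, 11 were lower, with a median of -0.03. Of 9 measured genes that are higher in male than in female mouse liver 7 were lower, with a median of -0.25. Without 0.1% replicate 5, 8 were lower and the median was -0.08. The mean log2 score of this list was -0.18, -0.11 and -0.25 in 0.1% replicates 2, 4 and 5, against -0.09 to 0.08 in control liver. Of these 9 genes Cyp7b1, an oxysterol hydroxylase, was below all controls (-0.25 ± 0.09).

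Protein folding genes were uneven between samples at 0.1%. Hspd1 and Hspe1, the mitochondrial chaperonin and its lid, were both below the controls, at -0.42 ± 0.13 and -0.22 ± 0.10. The score of the 14 measured heat shock chaperones was -0.14, 0.27 and -0.56 in replicates 2, 4 and 5, against -0.30 to 0.40 in control liver. Without replicate 5, 8 of 14 were higher and the median was 0.02, in place of 5 higher and -0.14. Of 24 unfolded protein and ATF4 response genes 14 were higher, with a median of 0.04. Acute phase (16 of 27 lower) and interferon response genes (14 of 22 lower) had medians of -0.02 and -0.06. Amino acid catabolism (13 of 23 higher) and cell cycle genes (13 of 21 higher) had medians of 0.02 and 0.01.

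The 3 samples at 0.1% differed among themselves more than the control samples did. Over 6544 genes with a mean log2 signal of at least 6, the root mean square log2 difference between 2 samples at 0.1% was 0.328 for replicates 2 and 4, 0.435 for replicates 2 and 5 and 0.532 for replicates 4 and 5. Between control samples it was 0.212 to 0.319. Replicate 2 lay 0.254 to 0.280 from the control samples, which is within the range of controls among themselves. Replicate 4 lay 0.338 to 0.365 from them and replicate 5 lay 0.390 to 0.548. On the first principal component, which held 49.8% of the variance, replicate 5 was at -29.3 and the other 6 samples between -3.60 and 13.7. On the second, with 19.4%, replicate 4 was at -19.2 and the others between -2.02 and 7.53.

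**Figure D5:**
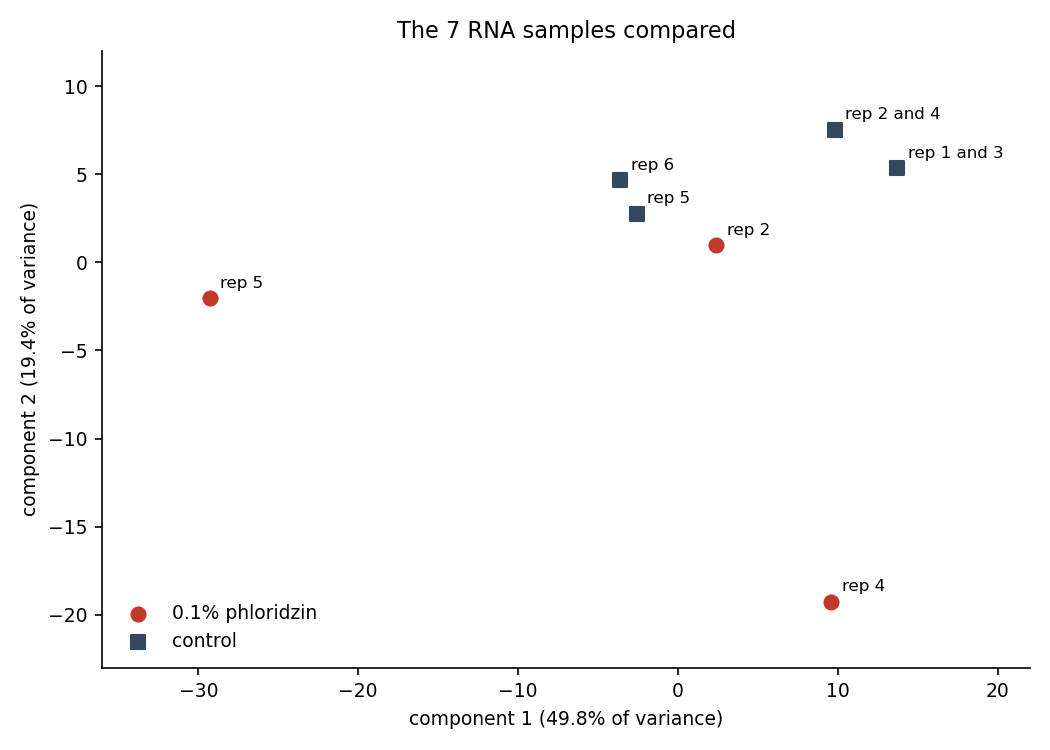
First and second principal components of the 7 RNA samples (axes, with the share of variance), computed over 6544 genes, for 0.1% phloridzin (red circles) and control (dark squares). Replicate 5 is far left, replicate 4 is at the bottom, and replicate 2 at 0.1% is close to the controls.

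Each sample at 0.1% had genes in which it stood apart from the other 6 samples compared. In replicate 5, 42 of the 6544 genes were more than 1 log2 unit from the nearest of the other 6 samples, against 6 in replicate 4 and 4 in replicate 2. The 5 genes farthest apart in replicate 5 were all low. Ncl, the nucleolar protein nucleolin, was at 6.35, against 7.78 to 8.82 in the others, and Tax1bp1, an autophagy receptor, at 6.94, against 8.42 to 9.27. Ubxn4 (6.28, against 7.90 to 8.80), Tmem184c (5.19, against 6.66 to 7.66) and Phf20l1 (4.39, against 5.71 to 6.90) were the other three. The 2-label RNA was also low in these genes, with Ncl at 7.05 and Ubxn4 at 6.99. Over the 1463 well measured genes, the SD of the log2 difference between replicate 5 and the arrays of that RNA was 0.219 to 0.222. The SD was larger between replicate 5 and the other samples at 0.1%, at 0.375 for replicate 2 and 0.450 for replicate 4. In replicate 4, Jpt1 was high at 8.73, against 5.83 to 6.55, and the interleukin-1 receptor Il1r1 was low at 5.24, against 6.55 to 7.42. Alcam and Rbms3 were also high in replicate 4 (8.50 and 7.21), and Ttc30b was low (5.15). In replicate 2, Aldh16a1 was low at 4.25, against 6.29 to 7.36. Upp2, a uridine phosphorylase with a daily rhythm in liver, was at 10.39 there, against 8.15 to 9.20, and Socs3, the feedback inhibitor of cytokine signalling, at 9.03, against 6.50 to 7.96 in the probe set used. The difference of Socs3 from control was 1.12, but -0.07 without probe sets marked x or s.

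Set against 0.5% phloridzin, 0.1% phloridzin gave 0 called genes (0%), with a smallest limma adjusted p of 0.0678 and 1407 genes at an unadjusted p under 0.05. Set against 1.0%, it gave 2 called genes (0.0152%) and 1600 at an unadjusted p under 0.05. Nsd3 was at 7.12, 6.61 and 6.35 at 0.1%, against 8.17 and 8.26 at 1.0%, a difference of -1.52 ± 0.21 (SE; limma adjusted p = 0.0477). Rbmxl2, an RNA-binding protein, was at 4.90, 5.19 and 5.33 at 0.1%, against 3.13 and 3.00 at 1.0%, or 2.07 ± 0.30 (limma adjusted p = 0.0477). Both groups of values were clear of each other, but the 1.0% values of Rbmxl2 were at or next to the floor. For Rbmxl2 the samples at 0.5% were also at the floor (3.00 and 3.00), and the 2-label RNA was at 3.36. Against control, Rbmxl2 differed by 0.05 ± 0.25. Nsd3 differed from control by -0.73, but by -0.24 in its other probe set with a mean log2 signal of at least 6. With the mean of a gene's probe sets, neither gene was called against 1.0%. With 2 samples at each higher dose, these comparisons resolve less than that with control.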

How the data were processed

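Liver RNA of the 0.1% phloridzin and control groups was measured on 1-colour Affymetrix mouse arrays. The deposited values are linear intensities of 45101 probe sets, and how the authors summarised, background-corrected or scaled it is not given in the sources used here, so the absolute scale is unknown. Per the labels' protocols, RNA was primed with oligo(dT) and hybridised as biotin-labelled cRNA. Detection calls and scan dates were not used here, so neither signal above background nor scan batches were tested.

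Probe sets were named from the platform annotation in GEO, which can be old: 34945 had 1 gene, and 932 with several and 9160 with none were not tested as genes. Of the single-gene probe sets, 34741 matched the RefSeq table (GRCm38.p6) by Entrez identifier, and 0 symbols changed. The intensities were quantile-normalized, floored at 8 and log2-transformed. Arrays with an SD of the log2 difference under 0.08 were averaged as 1 RNA, and so were sets whose 200 most variable genes differed less than 1.2 times as much as the rest. The lowest 40% of probe sets were left out and each gene took its probe set of highest mean, which gave 13118 genes. The fit was limma 3.58.1 in R 4.3.3 (lmFit, eBayes with trend) over 11 RNA samples of the 4 diets (4 control, 3 at 0.1%, 2 at 0.5% and 2 at 1.0%) with 7 residual degrees of freedom, two-sided, with Benjamini-Hochberg adjustment over all genes and a threshold of 0.05. Fold changes are on the floored scale, which understates those of dim transcripts.

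Simulated data for 13118 genes were fitted in the comparison of 0.1% with control. The fit recovered 64% of 100 genes changed by 1 log2 unit and 98% of 100 changed by 2, with 14 false calls. The adjusted threshold eases as more genes change, and only 3 genes were called in the data. The shares recovered thus need not hold for the data, where a change of 1 log2 unit can be harder to call. Genes were named if called, if among the 12 increases and 12 decreases described, if among the 4 of lowest p in any of 37 lists, if in a panel of glucose and insulin genes, or if among the 5 farthest apart in a sample at 0.1%. Acaca, Slc25a1, Mlxipl, Zfp36, Cpt2, Cpt1a, Ppara and Rbmxl2 fall outside this rule and were chosen after their values were seen. Members and lists were chosen with earlier results of these data known, and lists are described by counts and medians with no test. Alternatives covered scaling, floor, filter, probe set per gene, samples in the fit, joining of arrays, moderation, a replicate block and leaving out each sample.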

Additional observations from a re-analysis of the deposited data

Results flagged for a closer look

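Control samples that stood apart in a gene described above were found with Dixon's test in 5 of 103 groups of 4 control values, and chance flags about 1 in 20. For Dusp1, control replicates 2 and 4 were at a log2 signal of 10.78, against 10.27 in each of the other control samples. Without that control sample Dusp1 stood at -1.23 (limma adjusted p = 0.0275). For Khk, control replicate 5 was low at 10.96, against 11.19 to 11.22 in the others. For G6pc, control replicate 5 was low at 10.89, against 11.12 to 11.16. For Dhcr7, control replicate 6 was high at 8.79, against 7.99 to 8.12. The 3' minus 5' difference of Gapdh was highest in control replicates 1 and 3 among the controls, at -0.28.

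The doses differed in 2 genes by limma's test of the difference itself. Nsd3 was lower at 0.1% than at 1.0% by a log2 difference of -1.52, and Rbmxl2 was higher by 2.07 (limma adjusted p = 0.0477 for both). Neither was called with the mean of a gene's probe sets. At 0.5%, Rbmxl2 was also at the floor of 3.00 in each sample, so its low level was not particular to 1.0%. Gsk3a in the 2-label RNA, which was in no main comparison, had a log2 signal of 8.33, above the 7.73 to 8.17 of the control samples and below the 8.64 to 8.97 of the samples at 0.1%. With that RNA added at 0.1%, Gsk3a stood at 0.81 and was no longer called (limma adjusted p = 0.146).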

How the results depend on the processing

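The count of 3 genes called at 0.1% against control was 3 with a normalization target from the 9 arrays alone, without the lowest 60% of probe sets, without probe sets marked x or s, with no joining by fingerprint and with robust moderation, and 2 with the mean of a gene's probe sets or with the 2-label RNA added. It was 1 with arrays centred on their median or their 75th percentile, with a floor of 1 or 32, with no filter and with only the 7 samples compared. It was 0 with no scaling (712 genes at an unadjusted limma p under 0.05) and 0 without a trend in eBayes (1076). With every array as a sample it was 202, which counts near-identical arrays as separate samples. Leaving out each RNA sample gave 0 to 2, and 0 without 0.1% replicate 2 (1561 genes at an unadjusted p under 0.05) or 0.1% replicate 5 (1076). Replicate numbers 2, 4 and 5 occur in both diets, and deviations from the group means of same-numbered samples correlated at 0.230, 0.0665 and 0.434, which does not show that the numbers pair mice. A fit of the 9 arrays with replicate block called 1 gene, and it too counts near-identical control arrays as separate samples. Dusp1 was called under 13 of 17 settings other than leaving out a sample (limma adjusted p up to 0.200). Zfp36l1 was called under 7 of them (up to 0.616) and Gsk3a under 7 (up to 0.818). These 17 settings include every array as a sample and the replicate block, which count near-identical arrays separately. The direction of each gene was the same in all 28 settings. Against 0.5%, the count of 0 became 4 with no scaling, 1 with a floor of 1, 3 with a floor of 32, 14 with no filter, 1 with the mean of probe sets, 44 with no joining by fingerprint, 1227 with every array as a sample and 2 without a trend, and 0 to 7 when a sample was left out. Against 1.0%, the count of 2 became 0 with arrays centred on their median or 75th percentile, with no scaling, without the lowest 60% of probe sets, with the mean of probe sets and without a trend (951 to 2343 genes at an unadjusted p under 0.05 wherever it was 0), 1 with a floor of 1, 12 with a floor of 32, 6 with no filter, 154 with no joining by fingerprint and 1487 with every array as a sample, and 0 to 3 when a sample was left out. The cause of these shifts was not tested, though counting near-identical arrays as separate samples shrinks the spread by construction. That sets joined by fingerprint hold 1 RNA was inferred from their variable genes. The SD of the log2 difference between arrays of such sets was 0.108 to 0.137, against at most 0.0577 in near-identical pairs. Signals near the floor limit what can be seen in dim transcripts.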
